A study of Mus musculus with 3 samples.

Results

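The 40 genes described here are cell cycle genes that were followed through single-cell RNA libraries of the mouse cochlea: 16 genes that act before and during DNA replication, called here the S members, and 24 genes that act in mitosis, called here the M members. They were chosen by name, as 40 of the 32285 genes in the deposited count table. No measured value enters the rule, but the list was drawn up with earlier results of these data known. All animals were C57BL/6J mice. Control mice received no noise, the group labelled HHL received noise of 110 dB for 2 h, and the group labelled NIHL received 115 dB for 4 h on 3 days. Tissue of the noise groups was collected 6 h after exposure ended, and cochleae of 6 mice were pooled into 1 droplet-based 3′ library per group. The libraries stand in 1 table and are told apart only by a numeric suffix of the cell barcode, which no label ties to a group, so they are called library 1, 2 and 3 and no comparison of control, HHL and NIHL was made. With 1 library per group no test could be run, and all intervals are exact 95% intervals that cover counting error only.

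A dividing cell copies its DNA in S phase and separates the copies in mitosis (M). The genes for the machinery of each step are transcribed in waves, the S genes largely through E2F factors and the M genes largely through complexes that contain MYB and FOXM1 proteins, while in resting cells the DREAM complex holds many of both sets down. In blood formation, progenitors divide as they mature, and neutrophils and red cells stop dividing before their last steps of maturation, whereas most cell types of the adult mammalian cochlea, sensory hair cells included, do not divide.

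The letters of the gene starts differ between the member sets, and a window is shown for some of the highly counted members in which the motif of that set was found. The windows searched are 300 bases long, from 250 before to 50 after each start, taken from RefSeq on the build GRCm38.p6 and matched by symbol, which found 34 of the 40 members (13 S and 21 M). Mcm4, Gins2, Ccne2, Ccna2, Aurkb and Tpx2 had no entry. The CHR element, TTTGAA, known as a contact of the DREAM and MYB complexes, was present on either strand in 16 of 21 M members and in 1 of 13 S members, Mcm2, against 20.2% of 27025 genes. The M member windows are Top2a at chr11:99024195-99024224 on the minus strand, Mki67 at chr7:135716460-135716489 on the minus strand, Ube2c at chr2:164769888-164769917 on the plus strand, Cenpa at chr5:30666890-30666919 on the plus strand and Cenpf at chr1:189688067-189688096 on the minus strand. Each is 30 bases, 5′ to 3′ on the gene's strand, with the CHR letters or their reverse complement, TTCAAA, in capitals.
Top2a: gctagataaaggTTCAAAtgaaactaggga
Mki67: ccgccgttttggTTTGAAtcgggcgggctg
Ube2c: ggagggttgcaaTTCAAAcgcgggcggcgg
Cenpa: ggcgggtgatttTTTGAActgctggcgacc
Cenpf: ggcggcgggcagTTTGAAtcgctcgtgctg
Birc5 and Nusap1, also among the 8 most counted M members, held no TTTGAA in their windows, nor did Ccnb1, Bub1 and Cenpe.

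Of the S members, 5 of 13 held an E2F motif, searched as TTTGGCGC, TTTCGCGC, TTTGCCGC or TTTCCCGC on either strand: Mcm3, Mcm5, Mcm6, Mcm7 and Cdc6. Of the M members 1 of 21 held it, Cdk1, and of all genes 2.6%. The windows shown are Mcm7 at chr5:138171849-138171878, Mcm3 at chr1:20820275-20820304 and Mcm6 at chr1:128359734-128359763, all on the minus strand, with the E2F letters or their reverse complement in capitals.
Mcm7: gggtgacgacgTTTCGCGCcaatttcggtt
Mcm3: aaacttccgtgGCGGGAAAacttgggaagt
Mcm6: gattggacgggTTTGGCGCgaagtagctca
The CCAAT box was found in 19 of 21 M members, 8 of 13 S members and 41.1% of genes, and it overlaps the capitals of Mcm7. The TATA box, searched as TATAAA, was found in 0 of the 34 members and in 15.7% of genes. Lists of other genes of the same processes, which are no members, gave 22 of 33 mitosis genes and 5 of 28 replication genes with TTTGAA, and 3 of 33 and 10 of 28 with an E2F form. A match is a string of letters near a start and was not tied to binding here.

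After filters, libraries 1, 2 and 3 held 15932, 9152 and 10197 cells with medians of 5188, 6083.5 and 7868 UMIs (unique molecular identifiers, counted molecules). Of the barcodes of libraries 1, 2 and 3, 106, 86 and 93 were also found in another library. Each cell was put in a class by the marker list that scored highest in it, and names carry "-like" because a class is a range of that score and not a proven type: 30497 cells (86.4%) had a class, 5.87% of them close to the limits of the rule. No member is in a marker list. Although the labels name the cochlea, the classes of most cells were of blood lineages, and the gate found 26 hair cell-like, 44 inner ear epithelial-like and 411 cochlear fibrocyte-like cells. Levels are CPM, UMIs of a gene per 1000000 UMIs of the same cells. They are compared between groups of cells and not between genes.

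Among the S members the count over all cells ran from 8349 UMIs of Gins2, part of the GINS complex that joins the replicative helicase, to 94311 of Pcna, the sliding clamp of DNA polymerases (ENSMUSG00000027342). Pcna was at 250.8, 341.0 and 267.6 CPM in libraries 1, 2 and 3. Rrm1, the large subunit of ribonucleotide reductase, which makes deoxynucleotides (ENSMUSG00000030978), was at 153.1, 193.4 and 191.7 CPM. Rrm2, its small subunit (ENSMUSG00000020649), was at 128.8, 221.0 and 174.1 CPM. For all 3 of these genes library 1 was lowest and library 2 highest. Mcm7, a subunit of the MCM helicase that opens the DNA (ENSMUSG00000029730), was at 120.6, 161.6 and 179.6 CPM. Mcm3, of the same ring (ENSMUSG00000041859), was at 115.8, 132.4 and 158.5 CPM. Mcm6 (ENSMUSG00000026355) was at 110.8, 143.2 and 143.5 CPM. The helicase genes were thus lowest in library 1 too, and highest in library 3, where Mcm6 was nearly level with library 2.

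The M members ran from 12559 UMIs of Bub1, a kinase of the spindle checkpoint, to 193494 of Top2a, the topoisomerase that untangles sister chromosomes (ENSMUSG00000020914). Top2a was at 593.6, 444.0 and 641.9 CPM. Mki67, which coats mitotic chromosomes and gives the Ki-67 antigen (ENSMUSG00000031004), was at 545.7, 471.1 and 575.3 CPM. Both were lowest in library 2 and highest in library 3. Ube2c, the ubiquitin enzyme that works with the anaphase-promoting complex (ENSMUSG00000001403), was at 288.0, 370.4 and 339.5 CPM. Birc5, or survivin, of the chromosomal passenger complex (ENSMUSG00000017716), was at 207.3, 275.4 and 280.1 CPM. Cenpa, the histone variant of centromeres (ENSMUSG00000029177), was at 156.9, 204.8 and 202.2 CPM. In these 3 genes library 1 was lowest, unlike in Top2a and Mki67. Cenpf, of the outer kinetochore (ENSMUSG00000026605), was at 174.7, 170.7 and 178.5 CPM, nearly level. Cdca8, or borealin, another passenger subunit (ENSMUSG00000028873), was at 152.4, 151.2 and 194.7 CPM. Nusap1, which binds spindle microtubules (ENSMUSG00000027306), was at 145.8, 165.6 and 176.1 CPM. These values mix classes that the libraries held in unlike numbers, such as 5195, 948 and 1145 immature neutrophil-like cells, so the members are described by class from here on.

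By class, the S members were highest in early erythroid-like cells, the dividing precursors of red cells, in all 3 libraries. Their summed level there was 5720 (5590 to 5852), 4158 (4130 to 4186) and 3820 (3797 to 3843) CPM in libraries 1, 2 and 3. Promyelocyte-like cells, early precursors of neutrophils, had 2088, 1470 and 1668 CPM, and monocyte-like cells 1598, 1374 and 1802 CPM. Mature neutrophil-like cells had 113.1, 206.1 and 208.0 CPM, the lowest of all classes with at least 50 cells in each library. For 15 of the 16 S members the class with the highest CPM over all libraries was early erythroid-like. The exception was E2f1, a factor that switches on S genes, at 54.6 CPM in plasmacytoid dendritic-like cells and 51.2 CPM in early erythroid-like cells.

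**Figure D1:**
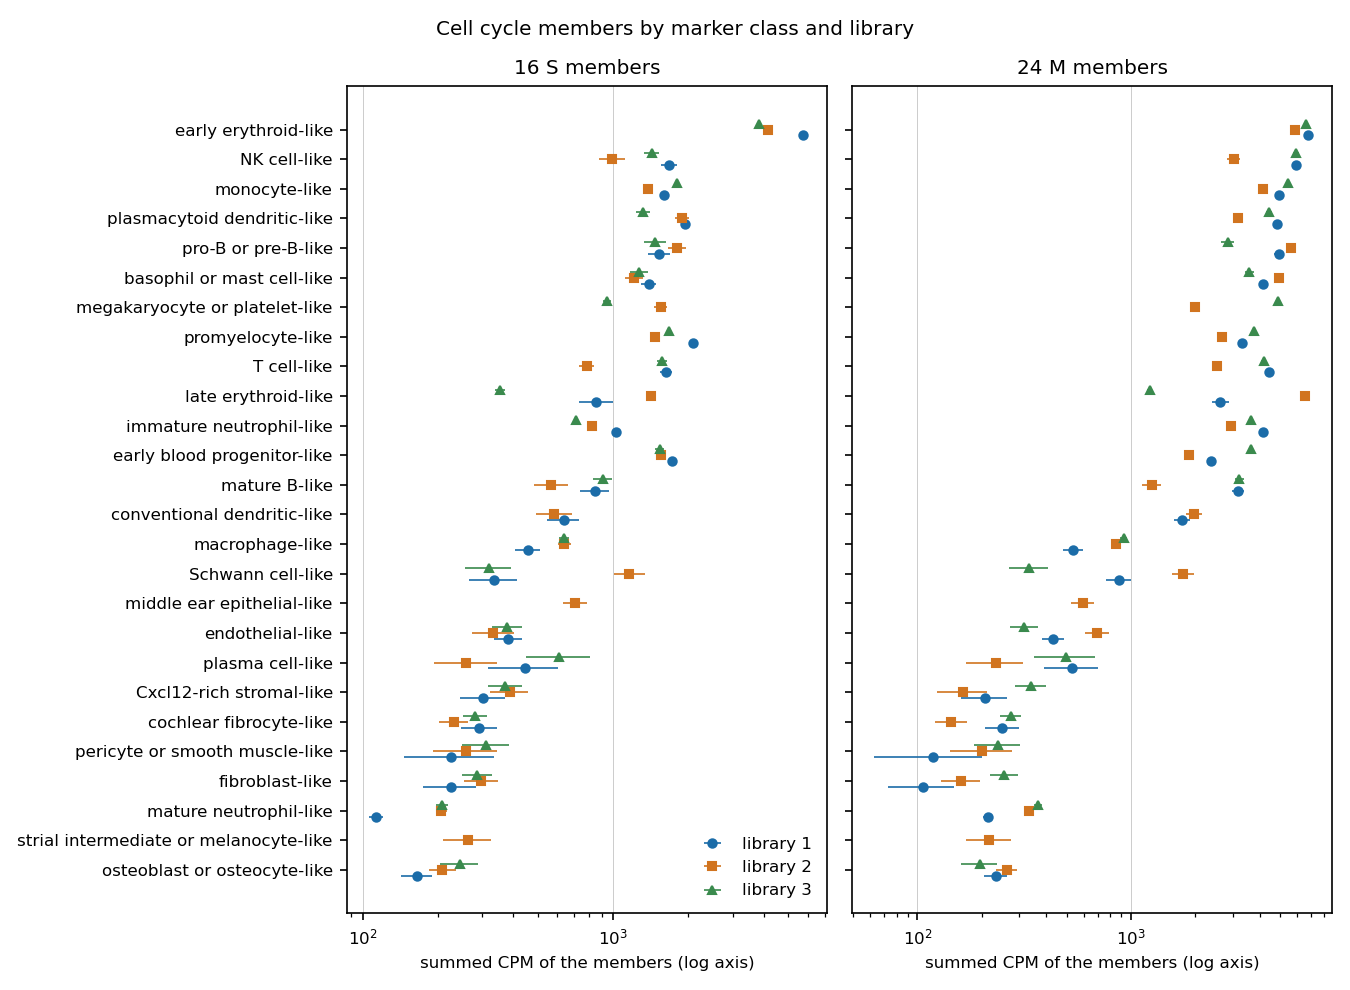
Summed CPM (log axis) of the 16 S members (left) and the 24 M members (right) in each marker class with at least 50 cells, points for libraries with at least 20 such cells and bars for 95% Poisson intervals. Early erythroid-like cells stand highest for S, from 3820 to 5720 CPM, and mature neutrophil-like cells lie at 113.1 to 208.0 CPM.

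The M members were spread over more classes. Early erythroid-like cells had a summed M level of 6764, 5844 and 6625 CPM, the highest class in libraries 1 and 3 and the next after late erythroid-like cells in library 2. Natural killer-like cells had 5897, 3026 and 5908 CPM (60, 46 and 67 cells), monocyte-like cells 4953, 4170 and 5440 CPM, and promyelocyte-like cells 3293, 2674 and 3778 CPM. Of the 24 M members 13 had their highest pooled CPM in early erythroid-like cells, 3 each in natural killer-like and monocyte-like cells, and 2 in late erythroid-like cells, Ube2c and Nusap1. The other 3 were Cdc20, the activator of the anaphase-promoting complex, in pro-B or pre-B-like cells, Kif23, a motor of the dividing cleft, in plasmacytoid dendritic-like cells, and Cdca8 in megakaryocyte or platelet-like cells. Some leads over the next class were narrow. Early erythroid-like cells came next for Cdc20, at 114.0 against 122.9 CPM (100 UMIs), and for Cdca8, at 263.4 against 271.9 CPM. Top2a was at 817.5 CPM in monocyte-like and 809.0 CPM in plasmacytoid dendritic-like cells. Kif23 had a wider lead, 233.5 CPM against 137.0 CPM in monocyte-like cells. Within libraries, 9, 10 and 15 M members and 15, 16 and 16 S members peaked in early erythroid-like cells. When UMIs of hemoglobin, mitochondrial genes, S100a8 and S100a9 were left out of the total, late erythroid-like cells came first for M over the pooled libraries, through library 2. They then had a summed M level of 5696, 18591 and 5268 in libraries 1, 2 and 3, and early erythroid-like cells 7794, 6300 and 7108. For S, early erythroid-like cells stayed first on that total, at 6591, 4482 and 4098.

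To count cells in which the program was seen, each cell was thinned at random to 1000 UMIs, which left out 895 shallower cells, and a cell was counted when UMIs of at least 3 of the 40 members remained. This was so in 37.7%, 32.3% and 40.6% of cells in libraries 1, 2 and 3, and without thinning in 53.4%, 61.6% and 74.7%. The unthinned order follows the median depths of 5188, 6083.5 and 7868 UMIs, and the thinned order does not. Early erythroid-like cells reached 100%, 96.8% and 96.4%. Promyelocyte-like cells reached 80.2% (77.7 to 82.5), 71.4% (66.1 to 76.4) and 82.3% (79.0 to 85.2), with 4, 15 and 73 shallow cells left out. Mature neutrophil-like cells, of a type that no longer divides, serve as the background and were at 0.554%, 2.46% and 2.55% thinned and at 6.65%, 21.6% and 36.7% unthinned, with median depths of 2605, 2942.5 and 3832 UMIs against 13731, 15406 and 20032 in promyelocyte-like cells.

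**Figure D2:**
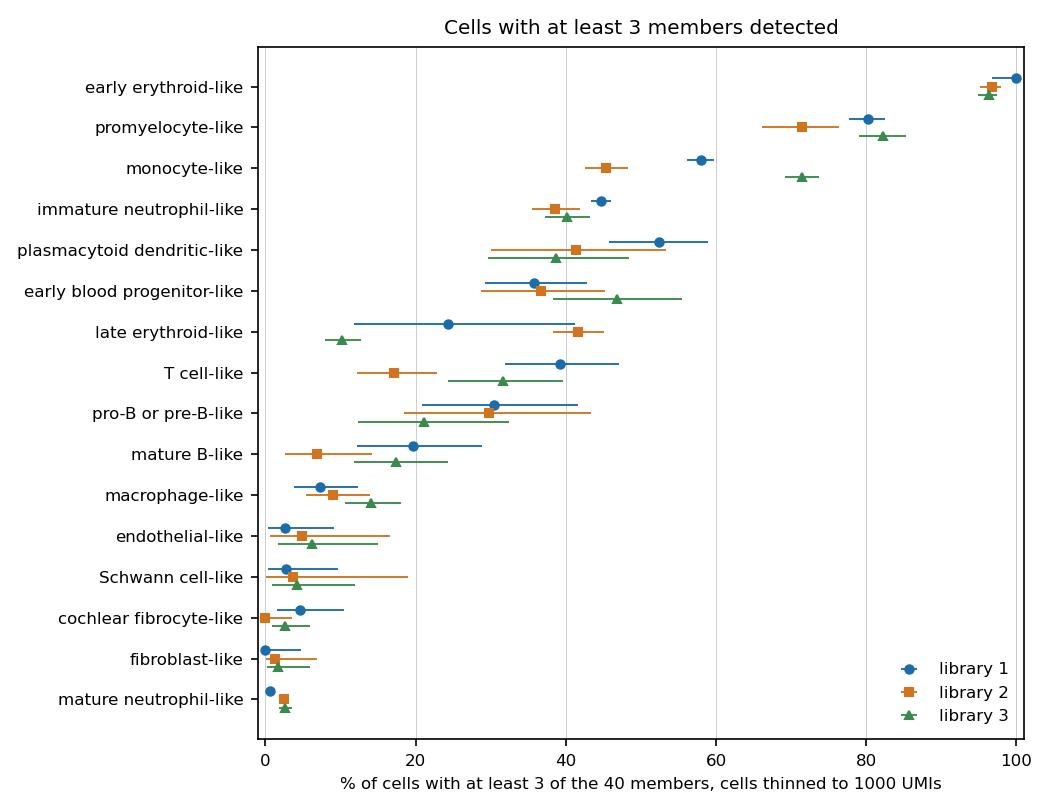
Share of cells (%) with UMIs of at least 3 of the 40 members after thinning to 1000 UMIs, by class and library, with exact binomial 95% intervals. Early erythroid-like cells are at 96.4% to 100% and mature neutrophil-like cells at 0.554% to 2.55%, and late erythroid-like cells run from 10.1% in library 3 to 41.6% in library 2.

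Between these ends lay classes in which part of the cells met this limit of 3 members and most of the others held at least 1 member before thinning. Immature neutrophil-like cells, the step between promyelocyte and mature neutrophil, had 44.7%, 38.6% and 40.2% of cells with at least 3 members. Those cells were deeper than the others of their class, at medians of 9548, 12894 and 19014 UMIs against 4311, 7110 and 8500. Their mitochondrial share was higher too, at 2.46%, 1.71% and 1.56% against 1.44%, 0.928% and 0.854%. All cells were thinned alike, and the part of RNA quality in the count was not tested. Monocyte-like cells had 58.0%, 45.4% and 71.5%, T cell-like cells 39.3%, 17.1% and 31.6%, and macrophage-like cells 7.27%, 9.05% and 14.0%. Library 2 was lowest in the first 2 of these classes and library 1 in the last.

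Promyelocyte-like cells exceeded mature neutrophil-like cells in nearly the whole program: 39 of 40 members were at least 2-fold higher in each library, 16 of 16 S and 23 of 24 M, against 36.6% of the 13511 genes tested. The median difference over the libraries was 3.17 log2 for S members and 3.59 for M members, beside 0.86 for all genes. When hemoglobin, mitochondrial, S100a8 and S100a9 UMIs were left out of the total, the median of all genes moved to 0.53 log2 and 38 of 40 members were at least 2-fold higher, against 31.1% of genes. In the CPM comparison no member was lower by that rule, against 12.3% of genes.

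Among spindle genes, Tpx2, which seeds spindle microtubules, was at 138.3, 118.5 and 164.8 CPM in promyelocyte-like and at 4.54, 5.81 and 7.84 CPM in mature neutrophil-like cells, 30.5-, 20.4- and 21.0-fold. Nusap1 stood at 114.8, 141.0 and 140.8 CPM against 4.54, 6.74 and 10.9 CPM, 25.3-, 20.9- and 13-fold. Cdca8 stood at 179.4, 162.9 and 212.9 CPM against 4.54, 8.58 and 10.7 CPM, 39.5-, 19.0- and 19.9-fold. These 3 had the largest median differences, and in each the promyelocyte-like level was above the mature level in every library. The smallest difference was that of Kif23, at 74.2, 43.8 and 56.2 CPM against 43.0, 38.7 and 31.2 CPM, or 1.73-, 1.13- and 1.80-fold. Kif23 was the member that missed the rule, and its mature neutrophil-like UMIs numbered 388, 293 and 175, while those of Bub1 numbered 15, 15 and 16. Pcna followed at 336.6, 227.6 and 219.0 CPM against 38.4, 57.1 and 52.7 CPM, and Cenpa at 128.1, 173.0 and 176.2 CPM against 29.0, 37.0 and 35.1 CPM. Both were at least 3.99-fold higher in promyelocyte-like cells, and their mature neutrophil-like levels began at 29.0 CPM.

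**Figure D3:**
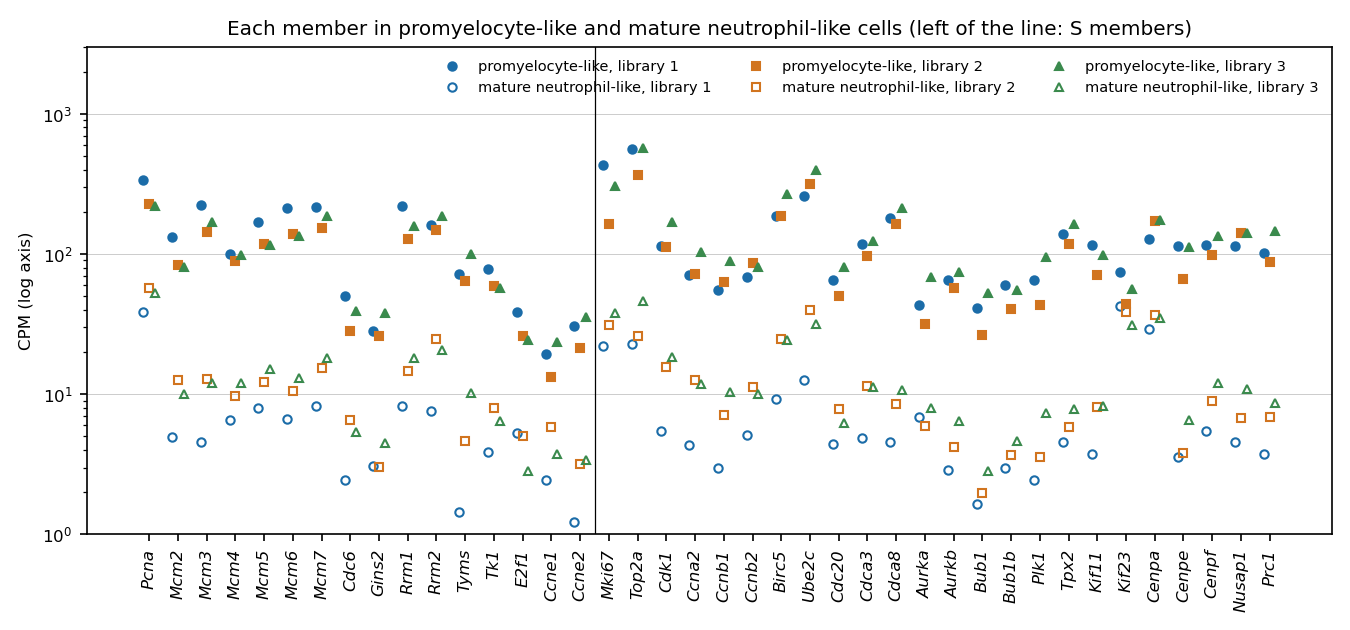
CPM (log axis) of each of the 40 members in promyelocyte-like and mature neutrophil-like cells, 1 symbol per library, S members left of the line and M members right. The promyelocyte-like value is at least 2-fold above in each library for 39 members, and Kif23 is closest, at 43.8 to 74.2 CPM against 31.2 to 43.0 CPM.

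In the same comparison the remaining S members ranged in promyelocyte-like cells from 13.4 CPM (Ccne1, library 2) to 223.8 CPM (Mcm3, library 1). They are Mcm2, Mcm4, Mcm5 and the named Mcm3, Mcm6 and Mcm7 of the helicase, Cdc6, which loads it, Gins2, the nucleotide enzymes Rrm1, Rrm2, Tyms and Tk1, the regulator E2f1, and the cyclins Ccne1 and Ccne2, which with Cdk2 start replication. Thymidylate synthase Tyms was at 71.6, 64.7 and 100.7 CPM against 1.44, 4.62 and 10.2 CPM. Of the M members, Cdk1, the mitotic kinase, was at 114.5, 112.5 and 168.6 CPM against 5.42, 15.6 and 18.5 CPM. Its cyclins Ccna2, Ccnb1 and Ccnb2, the kinases Aurka, Aurkb, Plk1 and Bub1, the checkpoint protein Bub1b, the motors Kif11 and Cenpe, the midzone bundler Prc1, Cdca3, Cdc20, Ube2c, Birc5, Cenpf, Top2a and Mki67 were all higher by the rule. In library 1 both sets were furthest apart. The M members had a median of 4.42 log2 there, against 3.14 and 3.56 in libraries 2 and 3, and the S members 4.41 against 3.01 and 3.12.

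Genes of the cycle outside the 40 were taken from lists and counted by the same rule. By that rule 36.6% of all genes tested were higher in promyelocyte-like than in mature neutrophil-like cells and 12.3% lower. Of 35 other replication genes 33 were higher in promyelocyte-like cells, and of the 35 those with the most UMIs there were Dut, which clears dUTP, Gmnn, an inhibitor of new licensing, and Slbp, which binds histone messages. Slbp and Rfc2, part of the clamp loader, were the 2 not called, and Slbp stood at 187.1, 137.1 and 140.6 CPM against 75.2, 73.7 and 42.2 CPM. Of 40 other mitosis genes 38 were higher and 1 was lower, Cdc25b, a phosphatase that activates Cdk1. Of 7 cyclins and kinases of the growth phase before replication, 6 were higher and Ccnd3, a D-type cyclin, was lower. Of 13 cell cycle transcription factors tested, 11 were higher and E2f2 was lower. Of 13 inhibitors tested, Rbl1 and Trp53 were higher and 6 were lower, Cdkn1b, Cdkn2d, Btg1, Btg2, Gadd45a and Mxd1. Btg1, an antiproliferative gene, was at 96.2, 86.6 and 50.3 CPM in promyelocyte-like and at 1576, 1611 and 962.4 CPM in mature neutrophil-like cells.

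In the red cell line the S members were lower in late than in early erythroid-like cells in every library, and so were the M members in libraries 1 and 3, while in library 2 their sum was higher in late cells. The summed S level was 5720, 4158 and 3820 CPM in early and 854.8, 1420 and 354.7 CPM in late erythroid-like cells. The summed M level was 6764, 5844 and 6625 CPM in early and 2622, 6535 and 1221 CPM in late erythroid-like cells. By the 2-fold rule 13 of 40 members were higher in early cells in each library, 12 of 16 S and 1 of 24 M, Bub1b, against 20.7% of 12769 genes. The count of members lower in early cells was 0, against 2.13%. With clusters of cells in place of the marker classes 2 of 40 members were higher in early cells, against 16.3% of genes, and with a 3-fold rule 8, against 10.8%. The median difference was 2.88 log2 for S, 1.47 for M and 1.44 for all genes. Late erythroid-like cells of library 1 were few, 41 against 850 and 626, and with libraries 1 and 3 alone 37 of 40 members were called, 16 S and 21 M, against 25.3% of genes, and with libraries 2 and 3 alone 13, against 53.1%.

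The S members with the largest drop were helicase genes and a cyclin. Mcm5 was at 367.0, 289.3 and 251.0 CPM in early and 21.1, 50.2 and 18.6 CPM in late cells, 17.4-, 5.76- and 13.5-fold. Ccne1 was at 164.0, 155.2 and 159.8 CPM against 15.8, 45.2 and 8.39 CPM, the late value of library 1 resting on 3 UMIs and that of Mcm5 on 4. Mcm2 was at 369.3, 262.0 and 204.3 CPM against 42.2, 56.7 and 20.3 CPM. In each of these genes the early cells were higher in all libraries, and library 2 had the smallest fold. The S members that missed the rule were Rrm2, Tyms, Tk1 and Ccne2, and Rrm2 stood at 433.7 CPM in early and 355.6 CPM in late cells of library 2.

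Of the 3 M members with the smallest drop, Ube2c and Nusap1 were higher in late cells of library 2. Ube2c was at 425.6, 467.9 and 458.7 CPM in early and 253.3, 1073 and 278.4 CPM in late erythroid-like cells. Nusap1 was at 277.2, 217.1 and 250.1 CPM against 110.8, 404.9 and 158.7 CPM. Tpx2 was at 178.8, 194.9 and 235.4 CPM against 95, 147.4 and 29.3 CPM. For the first 2 genes library 2 went the opposite way from libraries 1 and 3, and for Tpx2 it only came closer. Of other replication genes 33 of 35 were higher in early cells by the 2-fold rule, against 20.7% of all genes. Of other mitosis genes 3 of 40 were, Spc24, Mad2l1 and Cks2, which is below that share.

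Hemoglobin took 46.4%, 63.3% and 75.1% of the UMIs of late erythroid-like cells and 7.41%, 3.54% and 2.76% of early ones, so a CPM there falls as hemoglobin rises. On the total without hemoglobin, mitochondrial, S100a8 and S100a9 UMIs, the median of all genes between early and late cells moved from 1.44 to -0.13 log2, and 4 of 40 members were called, 4 S and 0 M, against 4.28% of genes. The medians were then 1.33 log2 for S and 0.49 for M. In library 2 on that total the direction of the M members reversed: 0 of 24 were higher in early cells by any fold. By 2-fold 0 were higher as well, against 28.1% of genes. Their median was -1.30 log2, against 0.08 for all genes, and 16 were at least 2-fold lower. Of the S members of library 2, 10 of 16 were higher in early cells by any fold, with a median of 0.42 log2. At least 2-fold higher were 5, and at least 2-fold lower 2. In each of libraries 1 and 3 the count of M members higher in early cells by any fold was 22. At least 2-fold higher were 6 and 12 M members, against 10.5% and 22.3% of genes, and at least 2-fold lower 0 and 2. The M medians of libraries 1 and 3 were 0.55 and 0.98 log2, against -0.50 and -0.09 for all genes. By CPM, library 2 had 14 of 24 M members higher in early cells by any fold, with a median of 0.10 log2, against 1.48 for all genes. By 2-fold 1 M member was higher there and 1 lower, while 60.3% of genes were higher.

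Erythroid-like cells were therefore also sorted by the hemoglobin share of their UMIs, early and late together, with summed members given per 1000000 UMIs that were not hemoglobin. In library 2 the S members were at 3610, 7076, 7894, 5167, 736 and 1006 in cells with 0 to 5%, 5 to 20%, 20 to 40%, 40 to 60%, 60 to 80% and 80 to 100% hemoglobin. The M members of library 2 were at 4908, 10344, 14653, 24998, 10155 and 4985 in the same order. In library 2 the S peak thus lay in the 20 to 40% bin and the M peak in the 40 to 60% bin, and the ratio of M to S UMIs rose from 1.36 in the lowest bin to 13.8 in the 60 to 80% bin. In library 3 the S members were at 3460, 6089, 4523, 2365, 906 and 922, and the M members at 5856, 10827, 11647, 7747, 4469 and 4238. The S peak of library 3 lay a bin lower than its M peak as well, and its ratio rose from 1.69 in the lowest to 4.93 in the 60 to 80% bin. At 40 to 60% hemoglobin library 2 (261 cells) stood above library 3 (67 cells) in both sets. At 0 to 5% and 5 to 20% library 3 was the higher for M, and at 60 to 80% for S, so the order of the libraries was not the same in all bins. Library 1 had 47, 65 and 21 cells in the 3 lowest bins and at most 11 in each of the others. In those 3 bins its S members were at 5137, 6856 and 5850 and its M members at 5321, 9065 and 7729. Among them both sets of library 1 were highest in the same bin, 5 to 20%, so it did not show the shift of libraries 2 and 3. Cells that are fewer and cells that hold less RNA cannot be told apart in these sums, and the bins share their cells' depth, which fell from a median of 37775 to 5272.5 UMIs across the bins of library 2.

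**Figure D4:**
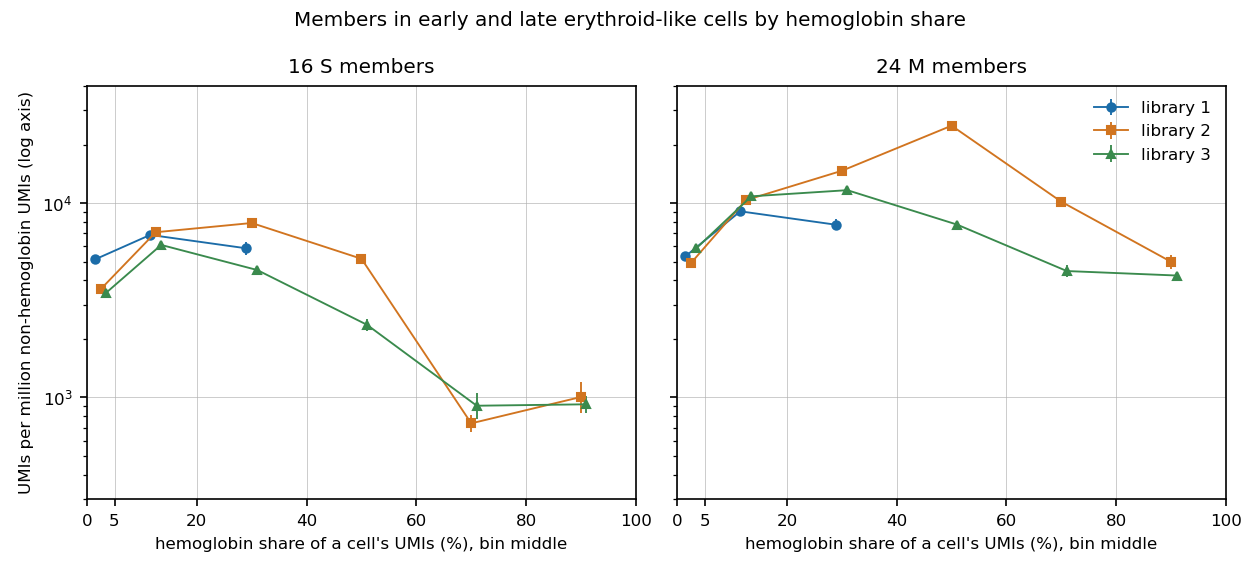
Summed members per 1000000 UMIs that are not hemoglobin (log axis) against the hemoglobin share of the cell's UMIs, for S (left) and M members (right), by library, with 95% Poisson intervals and only bins of at least 20 cells. In library 2 S is highest at 20 to 40% (7894) and M at 40 to 60% (24998), and in library 3 at 5 to 20% (6089) and 20 to 40% (11647). In library 1, with 3 such bins, both are highest at 5 to 20% (6856 and 9065).

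In the B lineage the members did not separate the stages in all libraries. Pro-B or pre-B-like cells (84, 65 and 79 cells) had a summed S level of 1524, 1802 and 1472 CPM and mature B-like cells (100, 89 and 156 cells) 844.4, 565.3 and 907.9 CPM. The M level was 4937, 5622 and 2834 CPM in the former and 3176, 1250 and 3219 CPM in the latter, so in library 3 the mature class was higher. The members at least 2-fold higher in pro-B or pre-B-like cells in each library were 4 of 40, Gins2, Tyms, Ccnb1 and Cdc20, against 4.69% of 8175 genes. Gins2 was at 33.2 CPM in the pooled 228 pro-B or pre-B-like cells, so its call rests on few counts. No member was lower by that rule, against 2.89%. With a 3-fold rule 0 were higher, and no share of all genes is given for that rule. In library 2 alone 13 of 16 S and 23 of 24 M members were at least 2-fold higher, with an M median of 2.28 log2, against 20.6% of genes. In library 1 alone the counts were 8 S and 7 M, against 17.3% of genes, and in library 3 alone 4 S and 2 M, with an M median of 0.19 log2, against 15.52%, so library 3 was near the share of all genes.

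Ccnb1, the B-type cyclin that drives entry into mitosis, was at 150.7, 167.0 and 110.5 CPM in pro-B or pre-B-like cells and 29.2, 17.6 and 42.7 CPM in mature B-like cells. Tpx2 was at 272.9, 177.4 and 107.0 CPM against 73.1, 35.1 and 95.6 CPM. Aurka, a spindle kinase, had 12, 16 and 10 UMIs against 2, 2 and 12, too few for a fold in libraries 1 and 2. In library 3 the folds of Tpx2 and Aurka were 1.12 and 1.74. Cdca3, a trigger of mitotic entry, was at 77.4, 177.4 and 42.8 CPM against 117.0, 35.1 and 78.5 CPM, higher in mature B-like cells in libraries 1 and 3. Cdk1, Kif23 and Plk1 each had a fold of 1.11 in library 1, between folds below and above it in the other libraries. Of pro-B or pre-B-like cells 30.5%, 29.8% and 21.1%, and of mature B-like cells 19.6%, 6.82% and 17.4%, had at least 3 members after thinning. The 57 such pro-B or pre-B-like cells had a lower summed level of the class's own 7 markers, 9366 CPM against 17295 CPM in the other 153, and more UMIs, and 11.8% of pro-B or pre-B-like and 18.8% of mature B-like cells lay close to the limits of the class. Whether the choice of cells by these limits moved the members was not tested.

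Cells of cochlear character had few members. Cochlear fibrocyte-like cells, the connective tissue of the lateral wall, had a summed S level of 292.0, 231.7 and 282.3 CPM and an M level of 250.01, 144.0 and 273.6 CPM. By the 2-fold rule 39 of 40 members were higher in promyelocyte-like than in cochlear fibrocyte-like cells in each library, 15 of 16 S and 24 of 24 M, against 10.5% of 13814 genes, and none was lower, against 26.1%. The medians were 3.06 log2 for S and 3.87 for M, and -0.55 for all genes. Pcna was at 106.0, 91.8 and 81.0 CPM in cochlear fibrocyte-like cells, and its folds had the smallest median of the members, 3.18, 2.48 and 2.70. Mcm4 was at 26.0, 31.3 and 35.7 CPM, with folds of 3.86, 2.86 and 2.75. Cdc6 was at 12, 14.6 and 6.10 CPM against 49.9, 28.5 and 39.1 CPM, and its fold of 1.95 in library 2 kept it out of the count. These 3 genes of replication were the closest between the classes. Plk1 had 1, 1 and 4 UMIs in cochlear fibrocyte-like cells, Aurka 1, 1 and 2, and Cenpe 2, 2 and 5. These are too few for a fold to be given, although the rule counted all 3 genes as called. Over the 3 libraries, 10 of 16 S and 13 of 24 M members reached 20 UMIs in cochlear fibrocyte-like cells. The calls of the other members thus rest on few counts in that class.

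After thinning 5 of 108, 0 of 103 and 5 of 195 cochlear fibrocyte-like cells had at least 3 members, shares of 4.63%, 0% and 2.56%, where the exact interval of the 0 ends at 3.52% and the floor of 3 cells is 2.91%. The intervals of libraries 2 and 3 overlap with those of mature neutrophil-like cells, and that of library 1, 1.52% to 10.5%, lies above 0.323% to 0.885%. The unthinned shares were 20.2%, 46.7% and 52.8% at median depths of 3420, 6000 and 4916 UMIs. The 10 cells had 2724 CPM of 7 immature neutrophil markers, 6 of them detected, against 988 CPM in the other 396. Of their own 6 markers they had 15151 CPM against 26449. The libraries differed: neutrophil markers were at 3284 against 1175 CPM in library 1 and 1342 against 1174 CPM in library 3. Own markers were at 6685 against 21343 CPM in library 1, but at 36067 against 32122 CPM in library 3. The part of this in the result was not tested. A share of 38.0% of cochlear fibrocyte-like cells lay close to the limits of the class. None of 44 inner ear epithelial-like cells (exact interval up to 8.04%, floor of 3 cells 6.82%) and 1 of 25 hair cell-like cells had at least 3 members. Fibroblast-like cells had 0, 1 and 2 such cells of 76, 79 and 118.

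Between libraries, the share of members that differed in promyelocyte-like cells was near that of all genes with the marker classes and below it with clusters. The highest library was at least 1.5-fold the lowest for 22 of 40 members, against 62.2% of 12627 genes, and for 14 with clusters in place of the marker classes, against 61.1%. By that rule 7 S members were highest in library 1 and 3 in library 3, and 4 M members in library 1 and 8 in library 3. Of all genes 31.1% were highest in library 1, 10.4% in library 2 and 20.6% in library 3, and no member was called highest in library 2. Mki67 had the largest ratio, 2.64, at 428.9, 162.5 and 308.1 CPM. Plk1, a kinase of many mitotic steps, was at 65.3, 43.6 and 95.3 CPM and Aurka at 43.6, 32.0 and 68.1 CPM. All of these were lowest in library 2. Mcm4 at 100.4, 89.7 and 98.4 CPM, Nusap1 and Rrm2 had the smallest ratios, 1.12, 1.23 and 1.251. The mitochondrial share of these cells was 6.01%, 3.95% and 4.19%, and its part in the differences was not tested.

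Early blood progenitor-like cells, of earlier stages than the promyelocyte, had an M level that was highest in library 3 and an S level that was highest in library 1. Their summed M level was 2378 (2302 to 2455), 1870 (1804 to 1937) and 3647 (3557 to 3738) CPM, and their summed S level 1724, 1552 and 1533 CPM. By the 1.5-fold rule 22 of 40 members differed, against 48.1% of 10668 genes. All 24 M members were highest in library 3, 21 of them at least 1.5-fold above the lowest library, and of the S members only Tyms met that rule, and 15.9% of genes were highest in library 3 by it. Cenpe, the motor that brings chromosomes to the spindle middle, was at 75.2, 42.7 and 128 CPM, a ratio of 3.00. Cenpf was at 113, 70.8 and 193 CPM and Prc1 had a ratio of 2.52, both with library 3 highest and library 2 lowest. Mcm4, Mcm6 and Mcm7 had ratios of 1.04, 1.11 and 1.13. The class held 205, 142 and 141 cells with median depths of 6452, 10210 and 11749 UMIs, 21.7% of them lay close to its limits, and no cluster of cells carried its name. Of its cells with at least 3 members after thinning, 22.2%, 31.4% and 38.5% lay close to the limits in libraries 1, 2 and 3. Of its other cells deep enough, 10.1%, 15.9% and 28.4% did. The part of this in the M level was not tested. By class, 12 of 40 members differed by the rule in immature neutrophil-like cells, all highest in library 1, against 58.0% of genes, 12 in monocyte-like cells against 49.2%, and 11 in early erythroid-like cells against 57.8%.

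Whether a cell held S members, M members or both was read in cells thinned to 5000 UMIs. A cell counts for a set with UMIs of at least 2 of its members. Cells said to have neither set, or only the other, may thus hold 1 member of a set. In promyelocyte-like cells 94.2%, 85.8% and 97.3% had both sets, and in early erythroid-like cells 100%, 99.7% and 99.4%. In immature neutrophil-like cells 16.9%, 20.3% and 26.7% had M members only, and 3.32%, 6.08% and 6.89% S members only. Late erythroid-like cells had 40.6% and 56.9% with M only in libraries 2 and 3 and 1.23% and 4.67% with S only. Early blood progenitor-like cells had the opposite lean in libraries 1 and 2, with 32.0%, 26.5% and 12.1% S only and 5.33%, 12.9% and 14.5% M only. Cochlear fibrocyte-like cells had neither set in 64.0%, 60.9% and 47.3%. Mature neutrophil-like cells, thinned alike, had neither in 75.9%, 60.7% and 47.9% and M only in 18.9%, 23.2% and 33.1%, in 228, 280 and 290 cells deep enough.

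**Figure D5:**
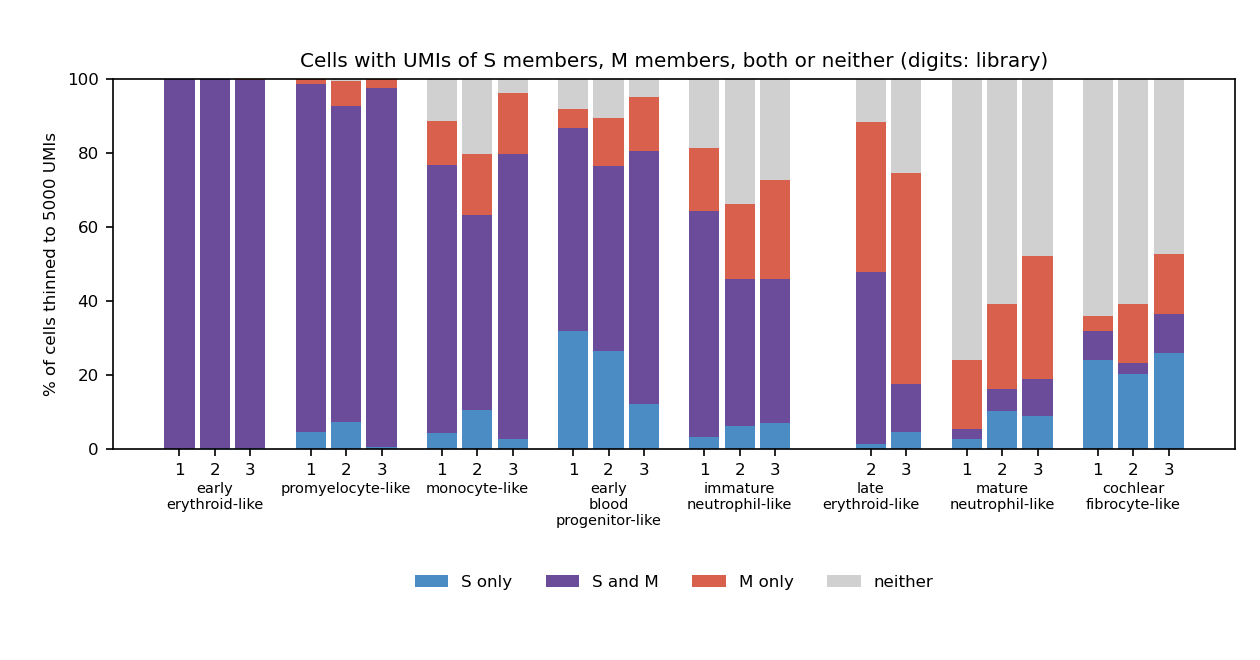
Share of cells (%) that counted for S members only, both sets, M members only or neither, by the rule of the text, after thinning to 5000 UMIs, by class, 1 bar per library with at least 20 such cells. Both sets prevail in promyelocyte-like (85.8% to 97.3%) and early erythroid-like cells (99.4% to 100%), and M only in late erythroid-like cells of library 3 (56.9%).

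Within promyelocyte-like cells thinned to 5000 UMIs members of a set were found together at higher ratios than members of different sets. The number of cells with UMIs of 2 members was set against the number expected if the 2 were detected independently. For pairs of M members the median ratio was 1.24, 1.26 and 1.08 in libraries 1, 2 and 3, for pairs of S members 1.10, 1.13 and 1.07, and for an S with an M member 0.902, 0.863 and 0.946 (1064, 281 and 551 cells). The grouping of the members by name was thus visible in which cells held them, by a small margin. Over all libraries the highest ratio was 1.52 for Nusap1 with Prc1, and the lowest 0.573 for Ccne1 with Ccnb1, the cyclins of the start of S phase and of mitosis. In early erythroid-like cells S with M pairs had medians of 1, 1.02 and 1.02, with most members detected in most cells. Cells of a library share depth and free RNA, and the ratios are given as a description.

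Across 56 combinations of class and library, which share depth and cell mix within a library, each member's level was compared with the rest of its set. Pearson's r was lowest for E2f1 at 0.81 and highest for Rrm1 at 0.96 among S members, and lowest for Kif23 at 0.88 and highest for Prc1 at 0.98 among M members. Outside the lists, the 10 genes of 12412 whose level was most like that of both sets summed were Pclaf (0.96), Tacc3 (0.95), Esco2, Asf1b, Spag5, Aspm, Hist1h1b, Shcbp1, H2afx and Cdca2 (0.94). Pclaf encodes a partner of the clamp Pcna, and Tacc3, Spag5 and Aspm encode spindle proteins. For the S members alone Dnmt1, the maintenance DNA methyltransferase, was nearest (0.96), and for the M members alone Tacc3 (0.96).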

How the data were processed

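The deposited file holds whole-number UMI counts per gene and barcode, which the authors made with Cell Ranger 7.1.0, per the file headers, on the build GRCm39, per the submitters' processing notes. Barcodes with at least 500 UMIs, at least 200 genes and at most 20% mitochondrial UMIs were kept: 16883, 9602 and 10703. Scrublet (scanpy 1.11.5, expected rate 6%, run on each library) called 951, 450 and 506 doublets, which were left out. Each cell took the class of its highest of 31 marker lists (214 markers) if its score was at least 0.15 and at least 1.25 times the next, a rule set after seeing the data. Leiden clusters built without cell cycle genes (resolution 2.0, leidenalg 0.10.2) were an alternative. UMIs were summed per class and library as CPM. A gene with at least 20 UMIs was called if at least 2-fold different in each library, or 1.5-fold between libraries. A 0 was replaced by 3 counts. Shares have exact Clopper-Pearson and sums exact Poisson 95% intervals, and reads of 1 molecule count once. The 2-fold call between classes was tested on simulated counts with counting error only, at the UMI totals of promyelocyte-like and mature neutrophil-like cells. The other comparisons, with smaller classes, were not simulated. The thinning was tested on simulated counts, and the other steps were not tested. All 40 members are named, the 6 S and 8 M members with the highest CPM in full, and per comparison the 3 members with the largest and the 3 with the smallest fold. The members, lists and rules were chosen with earlier results of these data known. Sums were made with pandas 2.3.3 and numpy 2.4.6, intervals with scipy 1.17.1, figures with matplotlib 3.10.9.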

Additional observations from a re-analysis of the deposited data

Results flagged for a closer look

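Cells outside the comparisons also held the members above the level of mature neutrophil-like cells (0.554% to 2.55%). Of called doublets, which were left out, 58.6%, 58.1% and 67.6% had at least 3 members after thinning to 1000 UMIs in libraries 1, 2 and 3. Of the cells with no class, 32.5%, 37.2% and 30.9% did. Which cell types these are was not tested.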

How the results depend on the processing

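Of 78 values computed under alternatives, 43 kept their place and 35 moved. The count of members higher in early than in late erythroid-like cells was 2 with clusters as classes, 4 without hemoglobin, mitochondrial, S100a8 and S100a9 UMIs in the total, 8 with a 3-fold rule, and 37 with libraries 1 and 3 alone, an alternative chosen after seeing the data. The count for pro-B or pre-B-like cells was 0 with a 3-fold rule. The count differing between libraries in promyelocyte-like cells was 14 with clusters and 0 with a 3-fold rule. No share of all genes at 3-fold is set beside these counts of 0, so they are not read as a result about the members. The share of all cells with at least 3 members was 38.6%, 33.7% and 42.0% in libraries 1, 2 and 3 with doublets kept, 46.9%, 42.1% and 51.0% thinned to 2000 UMIs, 53.4%, 61.6% and 74.7% not thinned, 44.1%, 40.7% and 50.4% for at least 2 members and 27.5%, 24.3% and 29.5% for at least 5. In promyelocyte-like cells it was 96.8%, 94.7% and 98.3% at 2000 UMIs, 99.9%, 98.2% and 95.5% not thinned, 90.6%, 88.6% and 92.6% for at least 2 and 46.8%, 26.0% and 45.9% for at least 5, and 82.8% with clusters in library 1. The cause of these moves was not tested, beyond what each rule or depth fixes itself. No paired analysis was possible because each group is 1 library and no label ties a library to a group. At 1000 UMIs per cell, shares under the floor of 3 cells could not be seen, and the intervals leave out differences between mice.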
